A study of Mus musculus with 6 samples.

Results

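The cytosolic ribosomal protein genes encode the protein components of the ribosome that translates nuclear messenger RNAs. They were taken as all rows of the deposited table whose gene name begins with Rpl or Rps followed by a digit and holds no hyphen, together with Rplp0, Rplp1, Rplp2 and Rpsa, leaving out the kinases named Rps6k. The rule found 92 of 49585 rows. Of these, 43 encode proteins of the large subunit, 31 encode proteins of the small subunit and 3 encode the P stalk, and these 77 genes are called the core below. Another 14 rows are paralogs or retrogenes of a core gene, 6 of them annotated as pseudogenes, and the last is Rps19bp1, which encodes a protein that binds RPS19 and is not part of the ribosome.

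RNA with poly(A) tails was measured in Tregs, regulatory CD4 T cells that carry the transcription factor FOXP3 and hold other immune cells in check, from spleens of C57BL/6 mice aged 7 weeks. The sort took B220- CD4+ YFP+ cells, the series' design text adds CD25+, and both groups were cultured for 24 hours on plate-bound antibodies to CD3 and CD28. There were 3 libraries labelled Bach2-cKO, a conditional knockout of the transcriptional repressor BACH2, and 3 libraries labelled WT. The sources used here do not name the Cre driver, and the labels do not tell whether each library had its own mouse, so the spread behind every p-value may be technical.

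The ribosome is built from ribosomal RNA and a fixed set of ribosomal proteins, so the members are normally expressed in step with each other. Many of their messenger RNAs begin with a C followed by a stretch of pyrimidines, the 5′ terminal oligopyrimidine (TOP) motif, through which the kinase mTOR and the RNA-binding protein LARP1 control their translation. In T cells, stimulation through CD3 and CD28 is known to raise ribosome production as cells grow. Mammalian genomes also hold very many processed copies of these genes, made by reverse transcription of their abundant messenger RNAs, and short reads can be hard to assign between a gene and such copies.

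The gene starts below show members with and without the TOP motif at the listed start. RefSeq promoter entries (GRCm38.p6, 250 bases before to 50 bases after each start) matched 67 of the 92 members. Each line gives 30 bases on the gene's strand, beginning 10 bases before the listed start, with the longest pyrimidine run in capitals. The first is a gene that passed the test below, the next 4 are core genes with long runs, and the last is a paralog. Those 4 have a C at the listed start followed by at least 4 pyrimidines, while Rps16 and Rpl22l1 do not.
Rps16: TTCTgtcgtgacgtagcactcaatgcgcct
Rps6: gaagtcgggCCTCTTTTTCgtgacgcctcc
Rpl15: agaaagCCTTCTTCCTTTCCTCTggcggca
Rpl28: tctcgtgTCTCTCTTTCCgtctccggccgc
Rplp2: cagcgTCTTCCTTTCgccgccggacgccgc
Rpl22l1: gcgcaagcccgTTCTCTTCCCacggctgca

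These windows lie at chr7:28350679-28350708 on the plus strand for Rps16, chr4:86857348-86857377 on the minus strand for Rps6, chr14:18270967-18270996 on the minus strand for Rpl15, chr7:4792955-4792984 on the plus strand for Rpl28, chr7:141447641-141447670 on the plus strand for Rplp2 and chr3:28805498-28805527 on the plus strand for Rpl22l1. Within the 30 bases shown, the runs were 10 bases in Rps6, 17 in Rpl15, 11 in Rpl28, 10 in Rplp2 and 10 in Rpl22l1, against 4 in Rps16. The run of Rps16 begins at the first base shown and may go on before it, though no run of at least 7 lay within 25 bases of its listed start. The deposited start of Rps16, at 28350652, also lies before this window. A C at the listed start followed by at least 4 pyrimidines was found in 14 of the 67 matched members (20.9%), against 3.01% of the 27025 genes with a promoter entry. A run of at least 7 pyrimidines within 25 bases of the start was present in 58.2% of the members and in 32.7% of all genes. On the other strand such a run was present in 17.9% of the members and in 35.4% of all genes. These shares depend on how exactly a start is listed, and a match is a description of the letters only.

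Other motifs were searched on both strands of the 300 bases. CCGGAAG, the core of an ETS factor site, was present in 38.8% of the members and in 9.93% of all genes. CTTTCC was present in 53.7% of the members and in 29.3% of all genes, a count that overlaps with the pyrimidine runs. TGANTCA, the form bound by AP-1 and BACH proteins, was present in 2.99% of the members, namely in Rpl22 and Rpl9, and in 8.97% of all genes.

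Before the members, the libraries were checked. Read totals recovered from the steps in the values were 27703735 to 31976067 in libraries labelled Bach2-cKO and 27697735 to 43884431 in WT libraries. Bach2 itself had 88.9, 104.5 and 120.8 FPKM (fragments per kilobase of gene, corrected for library size) in libraries labelled Bach2-cKO, against 112.0, 111.4 and 99.4 FPKM in WT libraries, so its gene-level value did not separate the groups and did not check the labels. A value summed over the gene cannot show the loss of a part of it. Foxp3 averaged 123 ± 26.5 FPKM in libraries labelled Bach2-cKO and 116 ± 10.1 FPKM in WT libraries (SD, n = 3 each). Of the 8 Treg and T cell markers, 1 was called higher and 2 lower by limma. Il2ra, which encodes CD25, had a log2 fold change of 0.92 (adjusted p = 0.00186), Cd3d of -0.37 (adjusted p = 0.0292) and Cd3g of -0.28 (adjusted p = 0.0346 by limma). Cd4 averaged 291 ± 35.1 FPKM in libraries labelled Bach2-cKO and 361 ± 16.6 FPKM in WT libraries (SD, n = 3 each), without overlap and without passing the test (log2 fold change -0.31, adjusted p = 0.0578 by limma). The 8 markers summed to 2195 to 2553 FPKM in libraries labelled Bach2-cKO and to 2088 to 2459 FPKM in WT libraries, with none at 0. Markers of other cell types were present as well. The 12 B cell markers summed to 1783 to 2304 FPKM in libraries labelled Bach2-cKO and to 1297 to 1834 FPKM in WT libraries, with none at 0 and 5 of 12 called higher in libraries labelled Bach2-cKO. The 5 CD8 T cell markers summed to 163 to 324 FPKM in libraries labelled Bach2-cKO, where 4 of 5 were called higher, and to 102 to 127 FPKM in WT libraries. The 5 plasma cell markers summed to 168 to 246 FPKM in libraries labelled Bach2-cKO, where 3 were called higher, and to 89.7 to 103 FPKM in WT libraries. The 8 myeloid markers summed to 8.38, 50.5 and 63.3 FPKM in libraries labelled Bach2-cKO and to 11.2, 14.7 and 14.3 FPKM in WT libraries. The 4 erythroid markers summed to 180.3, 883.7 and 670.9 FPKM in libraries labelled Bach2-cKO and to 303.2, 440.8 and 160.7 FPKM in WT libraries. Bach2-cKO replicates 2 and 3 were highest in both lists, and limma and limma-voom called 0 of the 3 tested markers of either list, with 0 at an unadjusted p under 0.05. A B cell score was 0.07 to 0.43 in libraries labelled Bach2-cKO and -0.37 to 0.01 in WT libraries. With this score as covariate, the median log2 fold change of the members was -0.28 and 0 members were called. The calls over all genes numbered 56 higher and 74 lower, against 967 and 1144 without it. Since the score did not overlap between the groups, this fit cannot separate the score from the group labels. The part of any of these cells in the results below was not tested, and in bulk RNA fewer cells of a type and less RNA per cell cannot be told apart.

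The members were among the most abundant transcripts of these cells. They made up 11.5%, 11.8% and 10.3% of all summed FPKM in libraries labelled Bach2-cKO, against 11.9%, 12.7% and 12.9% in WT libraries. The means were 11.2 ± 0.768% and 12.5 ± 0.547% (SD, n = 3 each), a difference of -1.29 percentage points with no overlap between the groups. Bach2-cKO replicate 1 and 2 lay near WT replicate 1, and Bach2-cKO replicate 3 lay lowest. With immunoglobulin and mitochondrial rows left out of the sum, the groups overlapped. Bach2-cKO replicate 2 then had 12.19% and WT replicate 1 had 12.15%. By reads, which do not correct for length, the members held 5.74%, 5.87% and 5.09% of reads in libraries labelled Bach2-cKO and 5.76%, 6.35% and 6.41% in WT libraries, and here the groups overlapped.

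In the core, mean levels ran between 2.66 and 2755 FPKM with a median of 983 FPKM. The highest were Rplp0 and Rplp1, which with Rplp2 form the stalk of the large subunit that recruits elongation factors. Rplp0 had 2769, 2682 and 2269 FPKM in libraries labelled Bach2-cKO, against 2755, 2983 and 3070 FPKM in WT libraries. Rplp1 had 2736, 2807 and 2429 FPKM in libraries labelled Bach2-cKO, against 2591, 2924 and 2954 FPKM in WT libraries. Both genes had their lowest value in Bach2-cKO replicate 3, their groups overlapped, and their levels did not differ from each other beyond that spread. Rplp2, at 1139, 1237 and 1064 FPKM in libraries labelled Bach2-cKO and 1188, 1411 and 1260 FPKM in WT libraries, lay below both in every library.

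Next in order came Rps14, which joins the platform of the small subunit, with 1843, 1897 and 1654 FPKM in libraries labelled Bach2-cKO and 1926, 2162 and 2194 FPKM in WT libraries. Rpsa, also known as the laminin receptor and a protein of the small subunit, had 1961, 1933 and 1663 FPKM in libraries labelled Bach2-cKO and 1780, 1980 and 2148 FPKM in WT libraries. Rpl4, whose protein lines the exit tunnel of the large subunit, had 1942, 1948 and 1668 FPKM in libraries labelled Bach2-cKO and 1809, 1905 and 2047 FPKM in WT libraries. The ranges of these 3 genes overlapped, so their order among each other is not resolved. FPKM levels of different genes are set side by side per length. The length used was the annotated one where it fitted the deposited values, and otherwise the shortest that fitted. It was 268 to 1860 bases in the core (median 712). A multiple of the shortest length could fit as well, and the 268 bases of Rps15 lie below the 500 bases of its closest transcript.

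**Figure D1:**
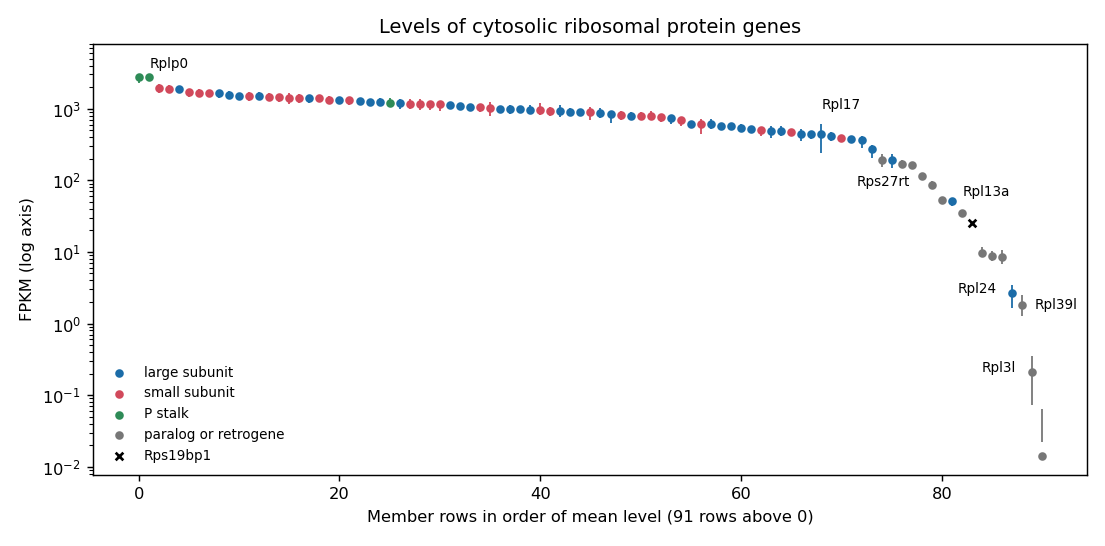
Mean FPKM of each of the 91 member rows above 0 (log axis), ordered by level and coloured by class, with vertical lines from the lowest to the highest library above 0. Core genes form a plateau with a median of 983 FPKM, Rpl24 and Rpl13a are the 2 core genes under 100 FPKM, and most paralogs lie at the low end.

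2 core genes stood far below the rest. Rpl24, which encodes a protein at the interface of the subunits, had 2.64, 2.29 and 1.67 FPKM in libraries labelled Bach2-cKO and 2.81, 3.12 and 3.41 FPKM in WT libraries, resting on 24 to 64 reads per library. Rpl13a, known in human cells also as a translational silencer of inflammatory messages, had 53.5, 55.7 and 44.0 FPKM in libraries labelled Bach2-cKO and 49.2, 50.5 and 53.8 FPKM in WT libraries. In GENCODE M21, 47.0% of the exon bases of Rpl24 lie under Gm28037 and 35.4% of those of Rpl13a lie under Gm45713 and small RNA genes on the same strand, and both Gm28037 and Gm45713 were listed at 0 FPKM. Whether the authors' counting left out reads in such overlaps was not tested, and the levels of these 2 genes are uncertain for that reason.

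Between the groups, most core genes were slightly lower in libraries labelled Bach2-cKO, and few passed the test gene by gene. On log2(FPKM + 1), with limma across 13766 genes that had at least 1 FPKM in at least 3 libraries and Benjamini-Hochberg adjustment, 89 members were tested, 0 were called higher and 2 were called lower, Rpl21 and Rps16. That is 2.25% of the members, against 8.31% of all genes tested called lower and 7.02% called higher. The share of members called was thus below the background. The median log2 fold change of the members was -0.16 (quartiles -0.22 and -0.11), against -0.02 over all genes tested. The fold change was below 0 for 79 of 89 members (88.8%), against 53.1% of all genes.

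Without adjustment, 23 of 89 members had a p under 0.05 in the lower direction (25.8%, against 17.0% of all genes), and 0 did so in the higher direction (against 13.8%). The groups did not overlap, with the libraries labelled Bach2-cKO lower, for 28 members (31.5%, against 20.1% of all genes), and did not overlap in the other direction for 0 members (against 15.5%). The members rise and fall together across libraries, so they are not independent and these counts are descriptions. With limma-voom on the recovered whole reads, 7 members were called lower (7.87%, against 9.79% of all genes), namely Rpl21, Rpl34, Rpl36, Rpl37a, Rps15, Rps16 and Rps27, and 0 were called higher (against 8.47%).

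Rpl21 belongs to the large subunit and lies at chr5:146832890-146837032 on the plus strand in the deposited positions, which match GRCm38. It had 151.2, 185.1 and 149.5 FPKM in libraries labelled Bach2-cKO, against 221.0, 195.1 and 231.6 FPKM in WT libraries. Every library labelled Bach2-cKO was below every WT library, with Bach2-cKO replicate 2 and WT replicate 2 close to each other. The log2 fold change was -0.42 (SE 0.10, adjusted p = 0.0333 by limma). It was called without Bach2-cKO replicate 2 and without WT replicate 2, and not without any of the other 4 libraries, where the adjusted p by limma was 0.0658 to 0.110. Its 14 named pseudogene rows, 12 of them above 0, held about as many reads as the gene itself, since 46.7% to 54.5% of their joint reads stood in the Rpl21 row. With the reads of these rows added, the level was 324, 357 and 299 FPKM in libraries labelled Bach2-cKO and 405, 393 and 445 FPKM in WT libraries, with a log2 fold change of -0.35 (adjusted p = 0.0316 by limma).

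Rps16 encodes a protein of the head of the small subunit and lies at chr7:28350652-28353155 on the plus strand. It had 1073, 1090 and 988 FPKM in libraries labelled Bach2-cKO, against 1195, 1376 and 1324 FPKM in WT libraries. The groups did not overlap, and the lowest WT library was replicate 1. The log2 fold change was -0.30 (SE 0.08, adjusted p = 0.0475 by limma), close to the threshold, and it was not called without any one library, where the adjusted p was 0.0510 to 0.148. Its single pseudogene row above 0, Rps16-ps2, had 284, 253 and 223 FPKM in libraries labelled Bach2-cKO and 274, 319 and 314 FPKM in WT libraries. With its reads added, the fold change was -0.30 and the adjusted p by limma 0.0559.

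Rps27, a zinc finger protein of the small subunit, had 694, 862 and 842 FPKM in libraries labelled Bach2-cKO and 941, 1061 and 955 FPKM in WT libraries, without overlap, and did not pass the main test (log2 fold change -0.31, SE 0.10, adjusted p = 0.0837 by limma). Rps15 had 1382, 1422 and 1270 FPKM in libraries labelled Bach2-cKO and 1538, 1727 and 1658 FPKM in WT libraries. Its log2 fold change was -0.27 (SE 0.08, adjusted p = 0.0664 by limma). Rpl34 and Rpl37a, of the large subunit, had fold changes of -0.24 and -0.25 with adjusted p of 0.0615 and 0.0722 by limma. Rps15, Rpl34 and Rpl37a were also called lower under quantile normalization and when libraries were scaled to the sum without the members. Rps10 was called lower under quantile normalization and Rpl36 by limma-voom. In the main test their log2 fold changes were -0.21 and -0.25 (adjusted p = 0.112 and 0.0839 by limma). These genes are named because another setting called them, a choice made after their values were seen.

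**Figure D2:**
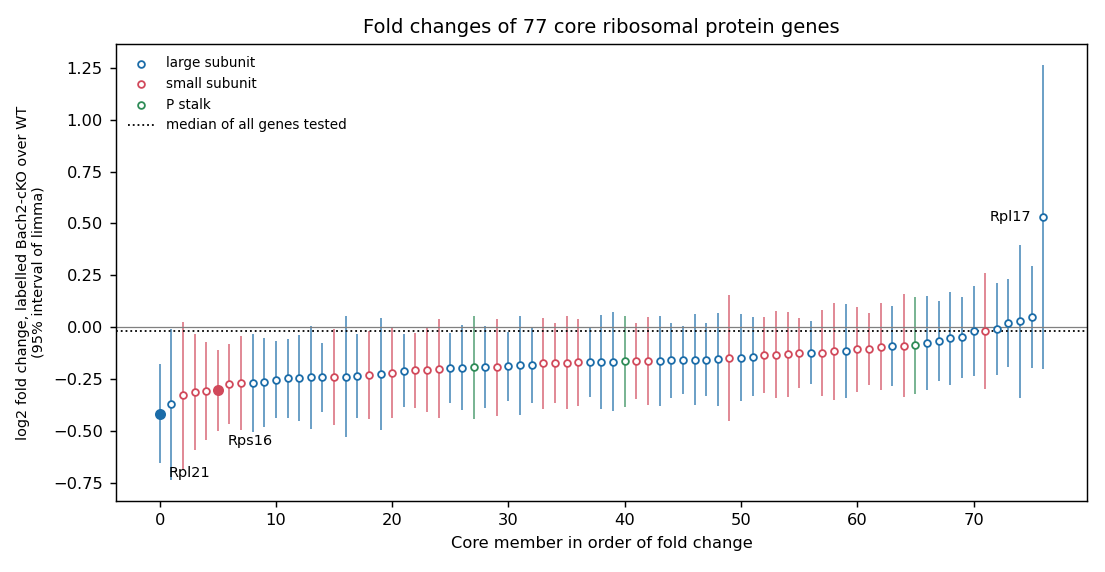
Log2 fold change, libraries labelled Bach2-cKO over WT libraries, of the 77 core genes in order (points, 95% intervals from limma), coloured by class, with filled points for an adjusted p under 0.05. Of 77 points, 73 lie below 0 and the filled points are Rpl21 and Rps16, while Rpl17 stands apart at the right end with the widest interval.

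The 3 classes of the core had near-equal medians. The median log2 fold change was -0.16 over the 43 large subunit genes, of which 39 were below 0. It was -0.17 over the 31 small subunit genes and -0.16 over the 3 P stalk genes, all of them below 0. In the small subunit the values ran between -0.33 for Rps27a and -0.02 for Rps2. In the large subunit the genes above 0 were Rpl17, Rpl10, Rpl23a and Rpl14, of which 3 lay between 0.02 and 0.05 and Rpl17 at 0.53. No difference between classes was tested. Intervals were wide compared with these shifts, with a median standard error of 0.09 in the core.

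Genes with little shared sequence gave much the same median. In the core, between 0% and 83.6% (median 31.3%) of the 100-base windows of a transcript also occurred in a transcript of another gene, and 20 of 77 genes shared over 50% of their windows. In 11 core genes, under 10% of windows were shared and under 10% of exon bases lay under another gene, among them Rpl22, Rpl39, Rpl4, Rpl8, Rps21 and Rps3. All 11 had a fold change below 0, with a median of -0.15, against -0.17 in the other 66. The lowest of the 11 was Rps27a at -0.33. Its value was -0.14 with the reads of its named pseudogene rows joined, as described below. Across the 77 core genes, which share the same 6 libraries, Spearman's rho of the fold change was 0.01 with the share of such windows, 0.18 with the length behind FPKM and 0.20 with the mean level.

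The lower values were not spread evenly over libraries. Relative to each gene's mean over all 6, the median deviation of the core on log2(FPKM + 1) was -0.04, 0.01 and -0.20 in Bach2-cKO replicates 1, 2 and 3, against -0.02, 0.14 and 0.13 in WT replicates 1, 2 and 3. Over all genes tested, every library's median deviation lay between -0.01 and 0.02. Bach2-cKO replicate 3 was the lowest library for 66 of 77 core genes, and the highest was WT replicate 3 for 40 of them and WT replicate 2 for 33. Without Bach2-cKO replicate 3 the median log2 fold change of the members was -0.10 and 0 members were called, and without WT replicate 1 it was -0.22 with 0 called lower. The sign of the median held without each library in turn.

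**Figure D3:**
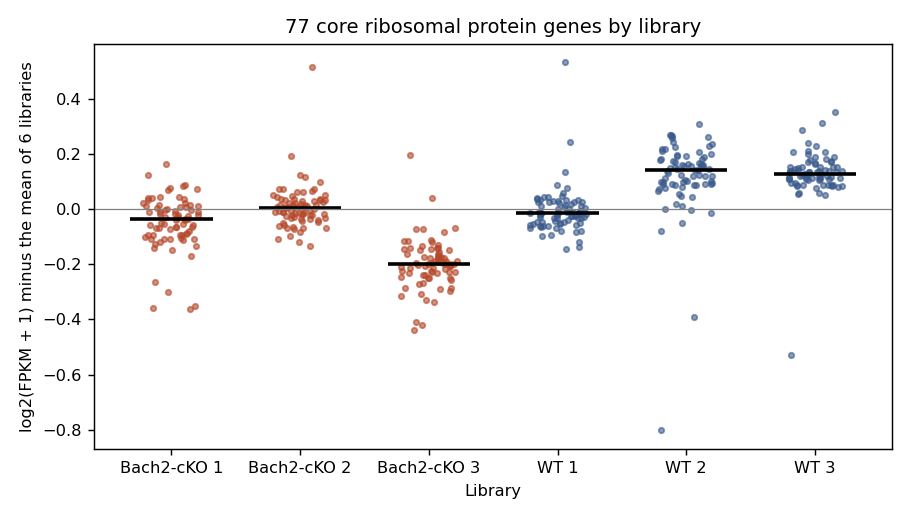
Log2(FPKM + 1) of the 77 core genes minus each gene's mean over the 6 libraries, one point per gene and library (spread sideways at random within a library), with black bars at the medians. The medians of Bach2-cKO replicates 1 and 2 and of WT replicate 1 lie between -0.04 and 0.01, Bach2-cKO replicate 3 lies at -0.20, and WT replicates 2 and 3 lie at 0.14 and 0.13.

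Rpl17, a large subunit protein that reaches the exit tunnel of the nascent chain, went against the rest. It had 441, 594 and 476 FPKM in libraries labelled Bach2-cKO, against 601, 238 and 287 FPKM in WT libraries. WT replicate 1 was the highest of all 6, while WT replicates 2 and 3 were the lowest, and the 2.53-fold range over libraries was the widest of the members tested. The log2 fold change was 0.53 (SE 0.31, adjusted p = 0.298 by limma). Without WT replicate 1 it was 0.93 with an adjusted p of 0.0181.

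The row Rpl17-ps10, a pseudogene on chromosome 7, had the opposite pattern. It had 541, 301 and 363 FPKM in libraries labelled Bach2-cKO and 316, 910 and 908 FPKM in WT libraries, low where Rpl17 was high. The Rpl17 row held 25.9% to 71.3% of the reads of Rpl17 and its 7 named pseudogene rows. With these reads joined, the level was 850, 833 and 756 FPKM in libraries labelled Bach2-cKO and 847, 917 and 964 FPKM in WT libraries. The range fell to 1.27-fold and the log2 fold change to -0.16 (SE 0.08, adjusted p = 0.221 by limma), near the median of the core. In Rpl17, 77.1% of windows occurred in other transcripts, so the split of reads between the gene and its copies is uncertain.

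Rps27a, which encodes ubiquitin fused to a small subunit protein, behaved in part likewise. It had 499, 684 and 447 FPKM in libraries labelled Bach2-cKO and 612, 697 and 707 FPKM in WT libraries, with Bach2-cKO replicates 1 and 3 lowest. Rps27a-ps2 had 278, 104 and 254 FPKM in libraries labelled Bach2-cKO and 101, 97.2 and 170.0 FPKM in WT libraries, highest in the libraries where the gene was lowest. With both joined, the log2 fold change of Rps27a was -0.14 (adjusted p = 0.387 by limma), against -0.33 (adjusted p = 0.193) for its row alone. Without Bach2-cKO replicate 2, and in no other setting, its row alone was called lower (log2 fold change -0.51, adjusted p = 0.0288 by limma). In this gene no 100-base window was shared with another annotated transcript, though shorter stretches were not searched.

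**Figure D4:**
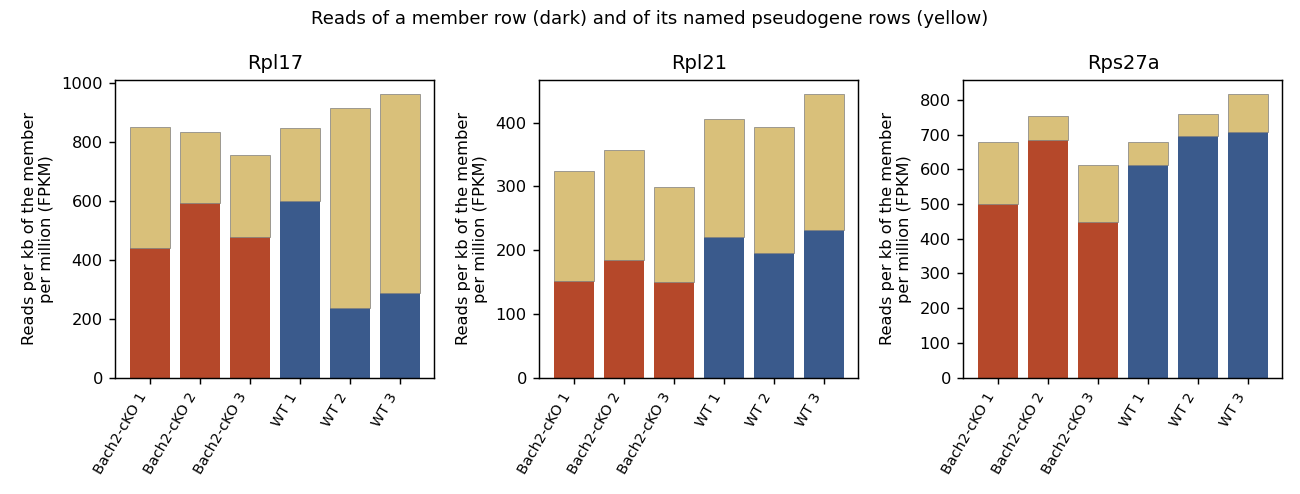
Level of Rpl17, Rpl21 and Rps27a in each library (FPKM at the length of the gene), as the gene's own row (dark, red for libraries labelled Bach2-cKO and blue for WT libraries) and the reads of its named pseudogene rows (yellow). For Rpl17 the own row varies 2.53-fold over libraries while the joint height varies 1.27-fold.

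Such rows were common. Of the 92 members, 60 have at least 1 row named as their pseudogene. The table holds 276 rows named as pseudogenes of ribosomal proteins, of which 85 were at 0 and 96 were tested. They summed to 4429, 3773 and 3583 FPKM in libraries labelled Bach2-cKO and 3827, 4610 and 4969 FPKM in WT libraries. Of the 96, limma called 0 higher and 1 lower, limma-voom called 0 higher and 2 lower, and at an unadjusted p under 0.05, 1 was higher and 13 were lower. The call by limma was Rpl19-ps11, with 18.9, 18.9 and 15.6 FPKM in libraries labelled Bach2-cKO and 23.1, 25.3 and 34.8 FPKM in WT libraries (log2 fold change -0.60, SE 0.15, adjusted p = 0.0388 by limma). Their median log2 fold change was -0.10. When the reads of all such rows were added to their members, 1 member was called lower, Rpl21, and the median of the members was -0.16.

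Paralogs let cells vary the composition of the ribosome, and several are known to be restricted to testis or muscle. As a class the 11 tested paralogs and retrogenes had a median log2 fold change of -0.02, with 6 below 0 and 5 above 0. By limma 0 were called, 0 had an unadjusted p under 0.05, and limma-voom called 0. Rps27rt and Rps27l, both relatives of Rps27, and Rpl36al were the most abundant, at 152 to 233, 145 to 178 and 151 to 189 FPKM over the 6 libraries. Rps27l is known as a target of p53. Rps27rt is a retrogene whose start is nearly that of its parent, as the next lines show. These 30-base windows begin 5 bases before the longest stretch that both entries share, which runs for 38 bases, and its first 25 bases are in capitals.
Rps27: cgctcCTTTCCGGCGGTGACGACCTCCCTA
Rps27rt: ccttgCTTTCCGGCGGTGACGACCTCCCTA

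The windows lie at chr3:90213623-90213652 on the minus strand for Rps27 and at chr9:114982715-114982744 on the minus strand for Rps27rt. Of the 100-base windows of Rps27rt, 89.5% also occurred in Rps27, so reads of this pair may be exchanged. For the other pairs with promoter entries, the longest shared stretch was 7 to 10 bases.

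At the low end of the class, Rpl39l, known from the testis, had 2.50, 1.89 and 1.27 FPKM in libraries labelled Bach2-cKO and 1.41, 2.24 and 1.54 FPKM in WT libraries, on 24 to 47 reads. Rps4l had 6.78 to 8.46 FPKM in libraries labelled Bach2-cKO and 7.74 to 10.5 FPKM in WT libraries, and Rps3a2 and Rps3a3 lay between 7.56 and 11.6 FPKM in all libraries. Rpl3l, the striated muscle form of Rpl3, was at 0.072 to 0.355 FPKM, Rpl10l, the testis form of Rpl10, was above 0 in 2 WT libraries with 1 and 2 reads, and Rps12l1 was listed at 0 in all 6. These 3 were not tested. A floor of 3 reads in a gene of 1 kb corresponds to between 0.0684 and 0.108 FPKM in these libraries.

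Since a ratio within a library is free of the scaling between libraries, each of 12 paralogs was set against its parent. Rpl22l1 had 15.2%, 15.4% and 15.3% of the FPKM of Rpl22 in libraries labelled Bach2-cKO, against 13.6%, 12.6% and 14.3% in WT libraries. Both proteins bind RNA outside the ribosome too, and loss of Rpl22 is known to raise Rpl22l1 in mouse T cells. Rpl36al had 47.3%, 41.9% and 43.3% of the FPKM of Rpl36a in libraries labelled Bach2-cKO, against 38.8%, 40.2% and 37.7% in WT libraries. Rps27l had 25.6%, 18.7% and 17.3% of the FPKM of Rps27 in libraries labelled Bach2-cKO, against 16.9%, 15.4% and 16.7% in WT libraries, with Bach2-cKO replicate 1 far above the others. Rpl7l1, a paralog of Rpl7 with a part in making the large subunit, had 3.24%, 3.42% and 3.41% of the FPKM of Rpl7 in libraries labelled Bach2-cKO, against 3.10%, 3.04% and 2.83% in WT libraries.

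In these 4 pairs the groups did not overlap. Each gave an exact two-sided permutation p of 0.1, the smallest that 3 against 3 libraries allow, and 0.3 after Benjamini-Hochberg adjustment over the 12 pairs, so none passed. In each of the 4 the parent's own log2 fold change was below 0 and the paralog's was between 0.00 and 0.05. The other 8 pairs overlapped between the groups. Among them Rpl37rt had 26.2 ± 1.27% of the FPKM of Rpl37 in libraries labelled Bach2-cKO and 24.8 ± 0.453% in WT libraries, and Rpl6l had 6.38 ± 0.434% of that of Rpl6 in libraries labelled Bach2-cKO and 6.78 ± 0.111% in WT libraries (SD, n = 3 each). Rps27rt had 22.2 ± 6.20% of that of Rps27 in libraries labelled Bach2-cKO and 20.8 ± 3.18% in WT libraries.

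**Figure D5:**
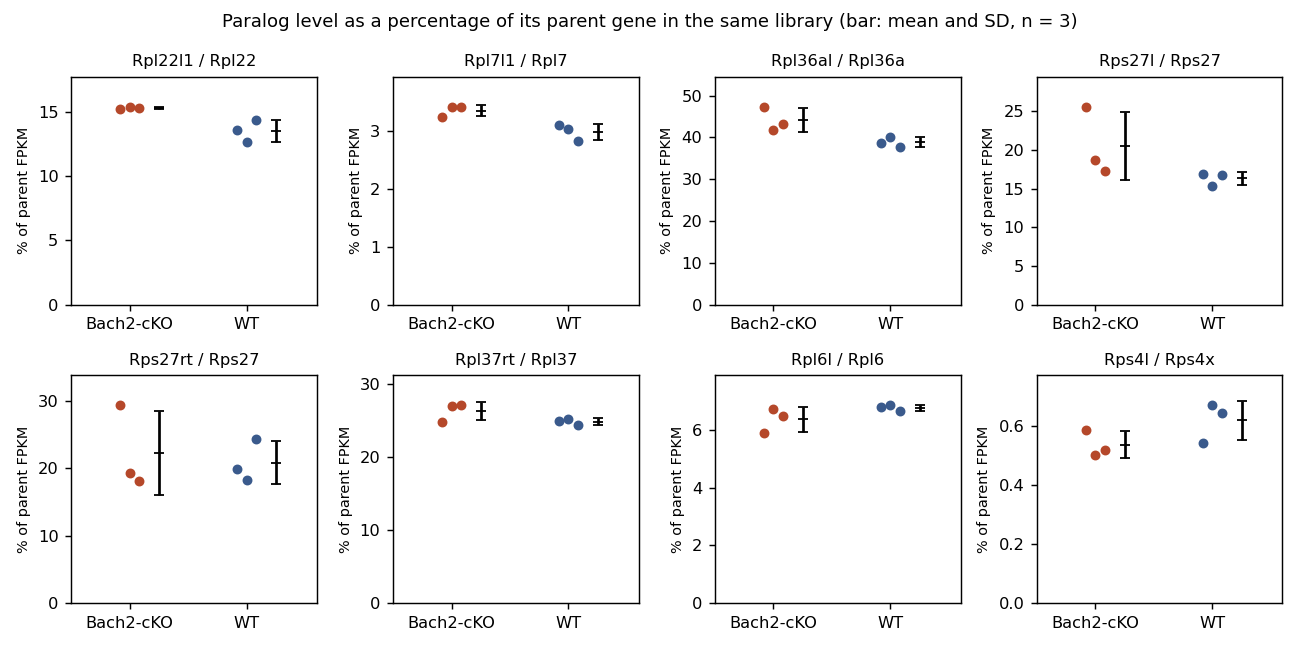
FPKM of 8 paralogs as a percentage of the parent gene in the same library (one point per library, bars for mean and SD, n = 3 per group, libraries labelled Bach2-cKO at the left). In the 4 upper panels every library labelled Bach2-cKO lies above every WT library, and in the 4 lower panels the groups overlap.

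Rps19bp1 had 28.0, 26.3 and 24.9 FPKM in libraries labelled Bach2-cKO and 23.9, 24.1 and 25.5 FPKM in WT libraries, with overlap, and did not pass the test (log2 fold change 0.10, adjusted p = 0.377 by limma).

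Genes whose products work with the ribosomal proteins were read from the same fit. Ribosomal proteins under other names had fold changes like those of the core. Fau and Rack1 had log2 fold changes of -0.17 and -0.13, with adjusted p of 0.226 and 0.334 by limma. Fau had 1455, 1417 and 1328 FPKM in libraries labelled Bach2-cKO and 1468, 1712 and 1557 FPKM in WT libraries, without overlap. Of 29 other genes with TOP messenger RNAs, 0 were called in either direction by limma, with a median of -0.10 and 22 below 0. At an unadjusted p under 0.05, 2 were higher and 3 lower, and limma-voom called 1 higher. The smallest p in that list was that of Vim, an intermediate filament protein, with 470 ± 91.1 FPKM in libraries labelled Bach2-cKO and 330 ± 33.9 FPKM in WT libraries (SD, n = 3 each) and a log2 fold change of 0.50 (adjusted p = 0.0523 by limma). Eef1a1, the elongation factor that carries transfer RNA to the ribosome and the most abundant of that list, averaged 8744 ± 624 FPKM in libraries labelled Bach2-cKO and 8851 ± 604 FPKM in WT libraries. Eef2, the translocation factor, averaged 1349 ± 92.7 FPKM in libraries labelled Bach2-cKO and 1408 ± 20.3 FPKM in WT libraries (SD, n = 3 each for both genes). In the list of 17 tested elongation factors, 0 were called by limma or limma-voom, 3 were lower at an unadjusted p under 0.05, and the median was -0.02. Those 3 were Gtpbp1, Eefsec and Eef1b2, with log2 fold changes of -0.16, -0.26 and -0.22 (adjusted p = 0.0918, 0.0948 and 0.145 by limma). Eef1a1 and Eef2 were named after their values were seen.

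Mitochondrial ribosomal proteins, which build the separate ribosome of mitochondria, had a median of 0.00 over 78 tested genes, with 39 below and 39 above 0. By limma and by limma-voom, 0 were called higher and 1 was called lower, while 4 were higher and 9 lower at an unadjusted p under 0.05. The call by limma was Mrpl30, with 49.6, 47.8 and 46.5 FPKM in libraries labelled Bach2-cKO and 56.0, 57.7 and 58.4 FPKM in WT libraries (log2 fold change -0.25, SE 0.06, adjusted p = 0.0234 by limma). The difference between this list and the cytosolic members was not tested.

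Of 46 initiation factors, 2 were called higher and 0 lower by limma and by limma-voom, 4 were higher and 3 lower at an unadjusted p under 0.05, and the median was 0.08. Eif1a, which helps the small subunit scan for the start codon, averaged 48.6 ± 3.66 FPKM in libraries labelled Bach2-cKO and 36.6 ± 3.03 FPKM in WT libraries (log2 fold change 0.40, adjusted p = 0.0197 by limma). Eif2s2, a subunit of the factor that delivers the initiator transfer RNA, averaged 63.1 ± 2.41 FPKM in libraries labelled Bach2-cKO and 52.3 ± 1.97 FPKM in WT libraries (SD, n = 3 each for both genes, log2 fold change 0.27, adjusted p = 0.0250 by limma). Of 54 tested chaperones and assembly factors of ribosomes, 0 were called by limma or limma-voom and 1 was lower at an unadjusted p under 0.05, with a median of -0.03. Of 20 subunits and factors of RNA polymerase I, which makes ribosomal RNA, 2 were called lower and 0 higher by limma and 1 lower and 0 higher by limma-voom, with 5 lower and 1 higher at an unadjusted p under 0.05. The calls by limma were Polr2e, a subunit shared by all nuclear RNA polymerases, and Polr1e, with log2 fold changes of -0.27 and -0.25 (adjusted p = 0.0296 and 0.0482 by limma).

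In the mTOR and S6 kinase pathway, 2 of 39 tested genes were called higher and 5 lower by limma. Over all genes tested, 7.02% were called higher and 8.31% lower. Eif4ebp1, a repressor of cap-dependent initiation, had 34.6, 38.2 and 38.8 FPKM in libraries labelled Bach2-cKO and 25.2, 28.6 and 23.7 FPKM in WT libraries (log2 fold change 0.51, adjusted p = 0.00858 by limma). Pik3ip1, an inhibitor of PI3 kinase that resting T cells carry, had 27.0, 26.6 and 25.7 FPKM in libraries labelled Bach2-cKO and 54.8, 55 and 45.4 FPKM in WT libraries (log2 fold change -0.94, adjusted p = 0.000803 by limma). Sesn3 and Sesn1, sestrins that restrain mTOR complex 1, had log2 fold changes of -0.81 and -0.89 (adjusted p = 0.00445 and 0.00871 by limma). The third sestrin, Sesn2, was called in the other direction, with 14.96 ± 0.998 FPKM in libraries labelled Bach2-cKO and 11.6 ± 0.280 FPKM in WT libraries (SD, n = 3 each) and a log2 fold change of 0.34 (adjusted p = 0.0309 by limma). The remaining lower calls were Pik3r1 and Lamtor2, named after their values were seen. Their log2 fold changes were -0.39 and -0.25 (adjusted p = 0.0144 and 0.0345 by limma). Mtor itself, named after its values were seen, averaged 35.1 ± 1.92 FPKM in libraries labelled Bach2-cKO and 35.0 ± 0.712 FPKM in WT libraries (SD, n = 3 each). The Rps6k kinases were kept out of the members, and some of them phosphorylate RPS6. Of 8 tested, 0 were called by limma or limma-voom and 0 had an unadjusted p under 0.05, with a median of -0.03.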

How the data were processed

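Poly(A) RNA was sequenced from 6 libraries, 3 labelled Bach2-cKO and 3 WT, grouped by their labels. The authors deposited FPKM values both as a table and as a file for each library; all 6 files equal their columns. Per the submitters' processing notes, the tools include HISAT2 2.0.5 and featureCounts 1.5.0-p3 and the build is mm9. Not given in the sources used here are filters, annotation, strand and the treatment of reads with several matches. Deposited gene positions equal those of GENCODE M21 (GRCm38) for 45128 of 49326 identifiers (91.5%), so positions are given as GRCm38. As FPKM is relative to the library total, the members, being a large share of it, bear on the scale of all genes.

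FPKM values step in units of 1 read; with a tolerance of 0.001 reads all 28530 genes above 0 came out whole, which accounts for 99.77% to 99.8% of the recovered totals. Most lengths that gave whole reads were not the annotated ones (11267 genes fitted at the annotated length). For the rest the shortest fitting length was taken, so the reads of some rows may be undercounted. Genes reaching 1 FPKM in 3 or more libraries entered the test, on log2(FPKM + 1), with limma 3.58.1 (lmFit, eBayes with trend) in R 4.3.3, two-sided, no covariate, Benjamini-Hochberg over all 13766 genes, threshold 0.05. Limma-voom on the recovered reads called 1166 genes higher and 1348 lower, against 967 and 1144 by the main test. Paralog ratios were compared by exact permutation. Copies are rows named after a member with -ps, joined by reads. Shared sequence was counted as 100-base windows found in transcripts of other genes. The windows came from the M21 transcript closest in length to the length behind FPKM. Figures used Matplotlib 3.10.9.

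Members and lists were chosen with earlier results of these data known. Named are members past the threshold, the 5 highest and the 5 lowest tested, paralogs with parents, P stalk genes, and up to 4 genes of each other list by p; others are said to be named after their values were seen, as are Rpl24, Rpl13a, Rpl17 and Rps27a. Alternatives were other scalings, pseudocounts, filters and tests, the replicate number as a block, a B cell score as covariate, and each library left out; joining copies and using members with little shared sequence were chosen after seeing the data. A few items are not reported here.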

Additional observations from a re-analysis of the deposited data

How the results depend on the processing

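With 3 libraries a group and 1 low library, the members' shift and the calls rest on few samples, and rows that share sequence with copies are uncertain. The median log2 fold change of the members stayed below 0 in every setting, between -0.22 and -0.10 with each library left out; it was -0.28 with the B cell score as covariate, and the cause was not tested. The 2 members called lower became 1 with median-ratio scaling, 6 with quantile normalization, 5 with libraries scaled to the sum without the members, 7 with limma-voom, 1 with copies joined, and 0 without a filter on low values, with the B cell score or at an adjusted p under 0.01. Leaving out each library gave 0 to 2 called lower and 0 to 1 called higher. Over all genes, 967 were called higher and 1144 lower; this became 501 and 681 without a filter, 56 and 74 once the B cell score entered, 341 and 454 at an adjusted p under 0.01, and 492 to 1224 and 560 to 1375 with each library left out. The labels do not say what the replicate numbers stand for. Same-numbered deviations correlated at -0.0526, 0.00578 and -0.215 (r over genes), and other pairs at -0.134 to 0.177. Deviations from a mean of 3 libraries depend on each other, so these values cannot show whether the samples were paired. With the replicate number as a block, 0 members were called lower, 625 genes were called higher and 657 lower. Over all settings, the adjusted p of Rpl21 ran between 0.0174 and 0.323 and that of Rps16 between 0.0212 and 0.220. Directions turned for Rpl4 (0.0478) and Rpsa (0.0220) with quantile normalization, for Rpl4 between -0.0958 and 0.0202 with each library left out, for Rpl17 with copies joined (-0.16), and for the log2 ratio of Rps3a3 to Rps3a1 with a pseudocount (0.0063). Under limma-voom and the other scalings, the medians of all genes lay between -0.04 and 0.01.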
